A study of Mus musculus with 6 samples.

Results

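The genes that encode the motors of the cytoskeleton were examined in mDCT15 cells, a mouse line of the distal convoluted tubule of the kidney. The members were the genes whose symbols name a kinesin (Kif, Kifc), a kinesin light chain (Klc), a subunit of cytoplasmic dynein (Dync, Dynl), a subunit of dynactin (Dctn) or a myosin heavy chain (Myo, Myh), which gave 91 of the 20624 genes in the table. They comprised 44 kinesin genes, 15 dynein genes, 6 dynactin genes and 26 myosin genes. One of the 44, Kif1bp, encodes a protein that binds kinesins and is not a motor itself.

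Total RNA depleted of ribosomal RNA was sequenced from 6 cultures, 3 of wild type mDCT15 cells and 3 of mDCT15 cells in which Pkd1, the gene of polycystin-1, was disrupted with CRISPR/Cas9 (named Pkd1-/- in the titles and a knockdown in the genotype field). All 6 were grown in the same medium with serum and without further treatment, and the sources used here do not state whether the Pkd1-/- cells come from 1 clone. The only value used for each gene was its mean normalized count, 1 pooled value over all 6 samples that carries no replicate error, so the genotypes were not compared and no test was run. A pooled mean cannot tell apart a gene used in both genotypes from a gene used in 1 of them. The depth of each library is unknown, and the mean of Pkd1 (3175 normalized counts) mixes edited and unedited cells and checks no label.

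Kinesins and dyneins are ATP-driven motors that walk along microtubules, most kinesins towards the plus end and cytoplasmic dynein towards the minus end. Myosins pull on actin filaments. In tubule epithelia these motors carry vesicles and membrane proteins, build and maintain the primary cilium, separate chromosomes in dividing cells and tense the cell cortex. Dynein needs the dynactin complex and an adaptor to move over long distances, and conventional kinesin binds many of its cargoes through its light chains.

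At a mean of at least 10 normalized counts, 81 of the 91 members were detected, against 66.5% of all genes in the table and 85.3% of its protein-coding genes. The 81 were 43 of 44 kinesin genes, all 15 dynein genes, all 6 dynactin genes and 17 of 26 myosin genes. A mean of at least 1000 was reached by 44 members. These counts rest on means not divided by length. A member under 10 can thus exceed a detected one per kb, as Myo1a (2.56) exceeded Kif26b (1.20). Otherwise levels of different genes were compared only as the mean normalized count per kb of exon. The exon length is the union of all annotated exons of the gene. On this scale the median member stood at 126 per kb and the median of all genes with an annotated length at 28.6 per kb. That second median covers genes of all types, and none was computed for protein-coding genes alone. Genes with a promoter searched below had higher medians, 63.9 per kb in 11595 of them and 66.1 per kb in the other 208. The level of 64 members lay above the median of 28.6 per kb, and 18 members were in the top 10% of genes.

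The summed level per kb of the 91 members was made up of kinesin genes by 37.9%, of myosin genes by 31.95%, of dynein genes by 22.2% and of dynactin genes by 7.89%. The 10 highest members held 43.4% of the sum. They were, in falling order of level per kb, Myh9, Dynlrb1, Myo1c, Dync1h1, Myh10, Dynll1, Kif11, Kif2c, Kif1c and Kif20a. The 10 lowest among the members with a mean of at least 10 were, from the lowest up, Kif26b, Kif6, Kif17, Dynlt1c, Myh14, Kif27, Dynlt1a, Kif9, Kif5a and Myo5b. The places of Dynlt1c and Dynlt1a among the lowest rest on the uncorrected length, since per kb of exon positions whose 42-base word is unique in the genome they stood at 27.9 and 47.8, above Kif5c (19.2) and Kif19a (21.3). The kinesin genes lay between 0.471 and 579 per kb, the myosin genes between 0.114 and 2098 per kb and the 6 dynactin genes between 122 and 474 per kb.

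**Figure D1:**
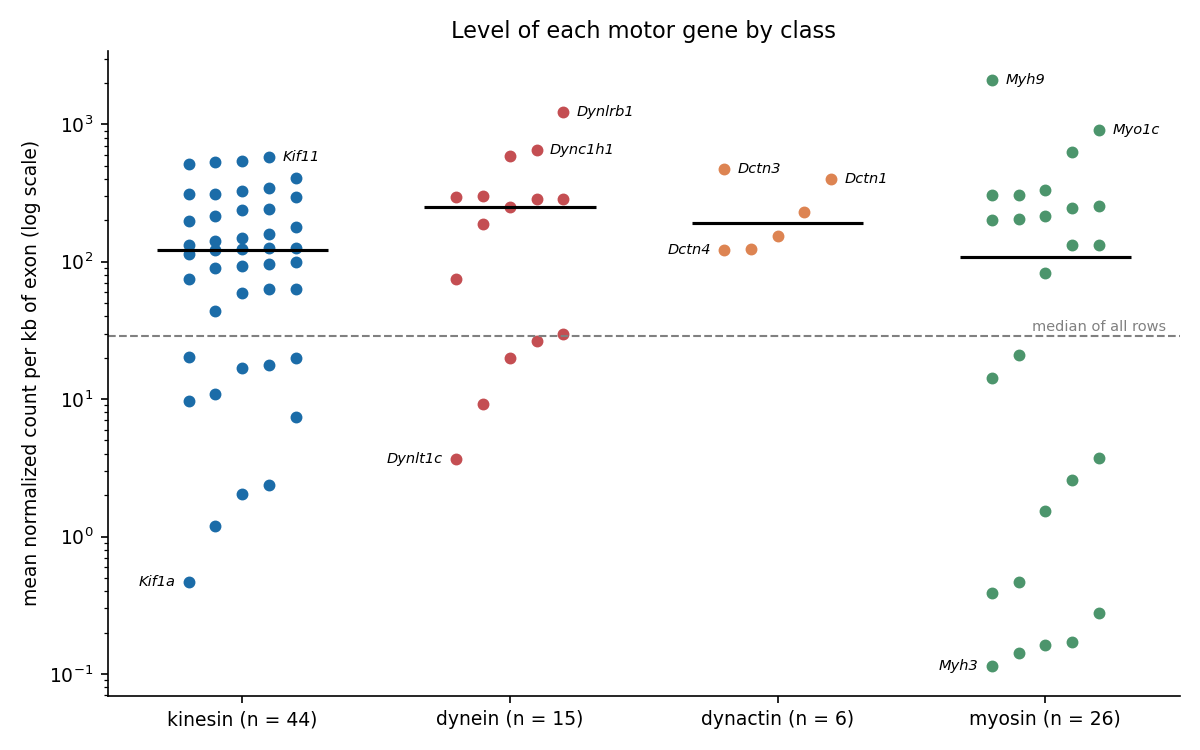
Level of each of the 91 motor genes, as the mean normalized count per kb of exon over all 6 samples on a log scale, for 44 kinesin, 15 dynein, 6 dynactin and 26 myosin genes. Each point is 1 gene, the black bars are the medians of the classes and the dashed line is the median of all genes (28.6 per kb). Myh9 lies highest at 2098 per kb and Myh3 lowest at 0.114 per kb.

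Nonmuscle myosin-2, the filament-forming motor that contracts cortical actin and the cytokinetic ring, was the leading myosin. Myh9, which encodes the heavy chain of nonmuscle myosin 2A (ENSMUSG00000022443, GRCm39 chr15:77644785-77726381, minus strand), had a mean of 31222 normalized counts. At 2098 per kb it stood at percentile 99.4 of all genes and alone made up 11.02% of the summed level of the members. Myh10, the heavy chain of nonmuscle myosin 2B, followed at 7205 normalized counts and 625 per kb. The third heavy chain, Myh14, had a mean of 31.8 normalized counts and 3.76 per kb. Myh10 thus stood at 0.298 times the level per kb of Myh9, with 0.150 to 0.325 over 4 measures of gene length.

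The muscle heavy chains analysed were all under a mean of 10. Myh11, the smooth muscle heavy chain, had a mean of 2.93 normalized counts, Myh13 of 1.012 and Myh3, the embryonic skeletal heavy chain, of 0.745. Among 4 other smooth muscle genes, Tagln (517 per kb), Acta2 (34.2 per kb) and Cnn1 (18.6 per kb) had means of at least 10 and Des (1.74 per kb) did not. Of 5 listed striated muscle genes 2 were analysed, Tnnt2 at 4.02 per kb, with a mean of at least 10, and Acta1 at 1.88 per kb. Their part in the levels of the myosins was not tested.

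Class 1 myosins are single-headed motors that tie membranes to actin. Myo1c, which moves membrane proteins to the cell surface, was the third highest member at 908 per kb (mean 8062 normalized counts). Myo1e stood at 206 per kb and Myo1d at 133 per kb. Myo1a, the brush border myosin of the intestine, Myo1h and Myo1g, which is known from blood cells, had means of 9.503, 9.15 and 1.93 normalized counts.

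The vesicle-carrying myosin-5 genes differed widely in level. Myo5c, the class 5 myosin of glandular epithelia, stood at 201 per kb and Myo5a at 133 per kb, and Myo5b, which works with Rab11 recycling endosomes, at 14.3 per kb. Myo6, the motor that moves towards the minus end of actin, was at 304 per kb (3809 normalized counts). The RhoGAP myosins Myo9a and Myo9b were at 332 and 253 per kb. Myo18a (304 per kb), Myo10 of filopodia (247 per kb) and Myo19 of mitochondria (82.1 per kb) were also above the median of all genes, and Myo7a was below it at 21.1 per kb. Myo15 and Myo15b (6.10 and 1.68 normalized counts) and Myo16 (1.48 normalized counts) did not reach a mean of 10.

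The partners of myosin were taken from a list of 8 genes, of which 7 had a mean of at least 10. The essential light chain Myl6 stood at 1073 per kb, and the regulatory light chain Myl12a at 336 per kb. Myl12b was at 10.7 per kb and Myl9, the regulatory light chain of smooth muscle, at 1.06 per kb. The kinases that act on the regulatory light chain were at 240 (Rock2), 93.4 (Rock1) and 43.8 (Mylk) per kb.

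Cytoplasmic dynein-1 is built on a pair of heavy chains with intermediate, light intermediate and light chains. Dync1h1, the heavy chain (ENSMUSG00000018707, GRCm39 chr12:110567821-110635470, plus strand), had a mean of 11653 normalized counts and 654 per kb, at percentile 96.5 of all genes. The light intermediate chains Dync1li1 and Dync1li2, which bind adaptors, stood at 302 and 284 per kb. Their order rests on the choice of length, since their ratio was 1.06 with union exons and ran from 0.892 to 1.098 over the 4 lengths. Among the intermediate chains, Dync1i2 was at 189 per kb and Dync1i1, which is known from neurons, at 20.02 per kb. The ratio of Dync1i2 to Dync1i1 was 9.43, with a highest value of 15.4 among the 4 lengths.

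The light chains of dynein are small proteins, several of which also serve other complexes. Dynlrb1, a roadblock-type light chain (ENSMUSG00000047459, GRCm39 chr2:155078453-155092197, plus strand), was the second highest member at 1227 per kb. Dynll1, the LC8 light chain, was at 586 per kb and its paralog Dynll2 at 249 per kb, a ratio of 2.36 that rose to 6.85 with the mean coding transcript. Dynlt3 was at 285 per kb. The 4 Dynlt1 genes lay lower, at 29.8 (Dynlt1b), 26.6 (Dynlt1f), 9.22 (Dynlt1a) and 3.67 (Dynlt1c) per kb, but these 4 values are uncertain for a reason that their sequences show.

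The Dynlt1 genes are near-identical copies on chromosome 17. Reads were 42 bases long, and the counting left out reads that map to more than 1 place, so only exon positions whose 42-base word occurs at a single place of the genome can place a read by itself, although the mate of a read pair can also place it. Such positions made up 22.2% of the exon positions of Dynlt1b, 19.995% of Dynlt1a, 13.7% of Dynlt1c and 8.69% of Dynlt1f. The following word from the coding sequence is shown because it is the same in all 4 copies (Dynlt1a chr17:6361123-6361164, Dynlt1b chr17:6703350-6703391, Dynlt1c chr17:6874954-6874995 and Dynlt1f chr17:6916641-6916682, GRCm39, read along each gene).
Dynlt1a, Dynlt1b, Dynlt1c and Dynlt1f: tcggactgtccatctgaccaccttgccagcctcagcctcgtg
A set of 176 such coding words was shared by all 4 copies, which was 54.0% of the coding words of Dynlt1b and 32.2% of those of Dynlt1c. The next words show a stretch that tells some copies apart, at 2 bases given in capitals.
Dynlt1a (chr17:6361090-6361131, minus strand): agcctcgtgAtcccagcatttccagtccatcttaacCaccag
Dynlt1b (chr17:6703383-6703424, plus strand): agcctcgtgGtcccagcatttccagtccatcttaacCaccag
Dynlt1c (chr17:6874987-6875028, plus strand): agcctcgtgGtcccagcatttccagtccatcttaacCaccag
Dynlt1f (chr17:6916608-6916649, minus strand): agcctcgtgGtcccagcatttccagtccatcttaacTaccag
The words of Dynlt1b and Dynlt1c are alike over the whole stretch. The means of the 4 genes summed to 184 normalized counts. Per kb of unique positions they stood at 321 (Dynlt1f), 172 (Dynlt1b), 47.8 (Dynlt1a) and 27.9 (Dynlt1c), so both their levels and their order depended on this correction.

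**Figure D2:**
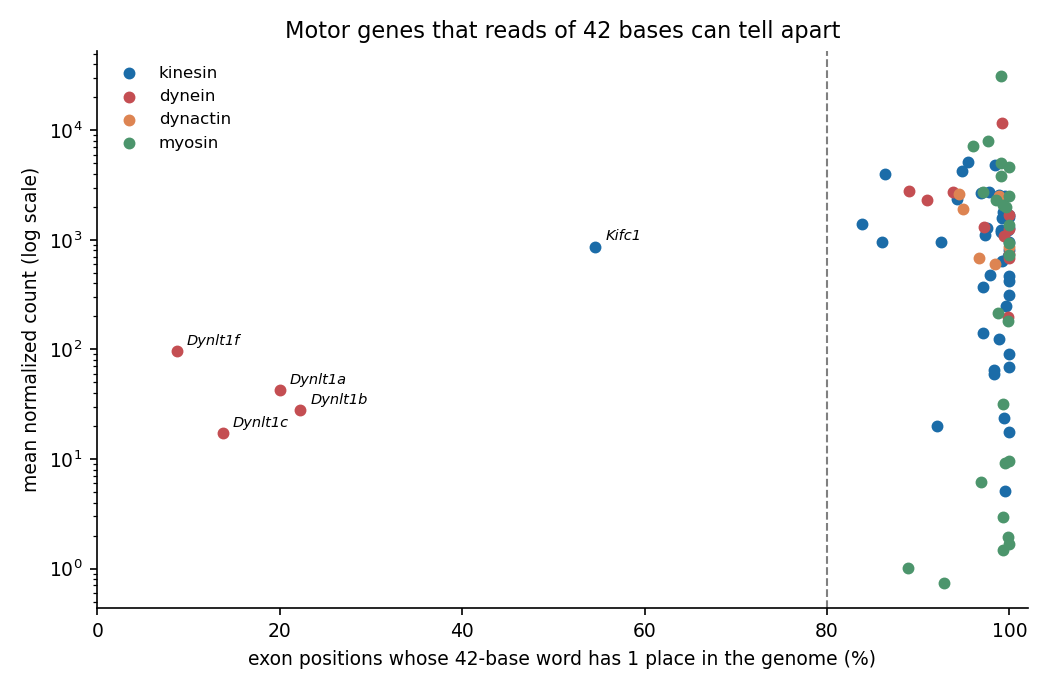
Mean normalized count (log scale) of each of the 91 motor genes against the share of its exon positions whose 42-base word has a single place in the genome, in percent. Points are genes coloured by class and the dashed line marks 80%. The 4 Dynlt1 genes (8.69% to 22.2%) and Kifc1 (54.5%) lie left of the line.

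Besides the Dynlt1 genes, only Kifc1 fell under 80% unique positions, with 54.5%, and its level is likewise uncertain. At least 95% of positions were unique in 72 of the 91 members. No member shared more than 10% of its exon bases with another gene on the same strand. On the opposite strand 18 members did, led by Kif20a (61.5%), Kif2a (41.1%), Kif3c (39.9%) and Dynll1 (37.4%). In the whole table, 12 genes had over 95% of their exon bases antisense inside exons of a host gene with a mean over 3000 normalized counts. Their median level per kb was 0.665% of that of their host, with a range from 0.190% to 41.3%. The members named here fell short of the limit of 95%, so the check does not measure the effect of their overlap.

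Dynein-2 drives retrograde transport inside cilia. Its heavy chain Dync2h1 was at 74.3 per kb (1247 normalized counts), which was 0.114 times the level per kb of Dync1h1, and its light intermediate chain Dync2li1 at 294 per kb. Other subunits of dynein-2 carry older symbols in the table and so fell outside the rule. They were Tctex1d2 (Dynlt2b) at 101 per kb, Wdr34 (Dync2i2) at 73.8 per kb and Wdr60 (Dync2i1) at 30.4 per kb.

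Dynactin was detected with all 6 of its Dctn genes. On union exons Dctn3, the p24 subunit, stood highest at 474 per kb, followed by Dctn1, the p150 subunit that binds microtubules and dynein, at 400 per kb. Dctn2 (dynamitin) was at 230 per kb, and the pointed-end subunits Dctn5, Dctn6 and Dctn4 at 155, 123 and 122 per kb. The level of Dctn1 was 0.611 times that of Dync1h1, and between 0.611 and 0.828 times over the 4 lengths. The order within dynactin depended on the length used. The ratio of Dctn2 to Dctn1 was 0.575 on union exons and 2.35 on the mean coding transcript, where Dctn2 (1494 per kb) also stood above Dctn3 (968 per kb). Dctn4, the lowest on union exons, stood above Dctn6 and Dctn5 on the longest transcript (445, 243 and 219 per kb) and on the mean coding transcript (735, 564 and 526 per kb). The actin-like filament of dynactin is encoded by Actr1a (529 per kb) and Actr1b (490 per kb), and its capping proteins by Capzb (590 per kb), Capza2 (426 per kb) and Capza1 (154 per kb).

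All 17 listed partners of dynein and dynactin had a mean of at least 10. Pafah1b1 (Lis1), the regulator of dynein, led them at 745 per kb. Nde1 and Ndel1, which bring Lis1 to dynein, were at 303 and 177 per kb. The cargo adaptors ranged from Bicd2 (263 per kb) and Hook1 (159 per kb) down to Bicd1 (16.1 per kb).

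**Figure D3:**
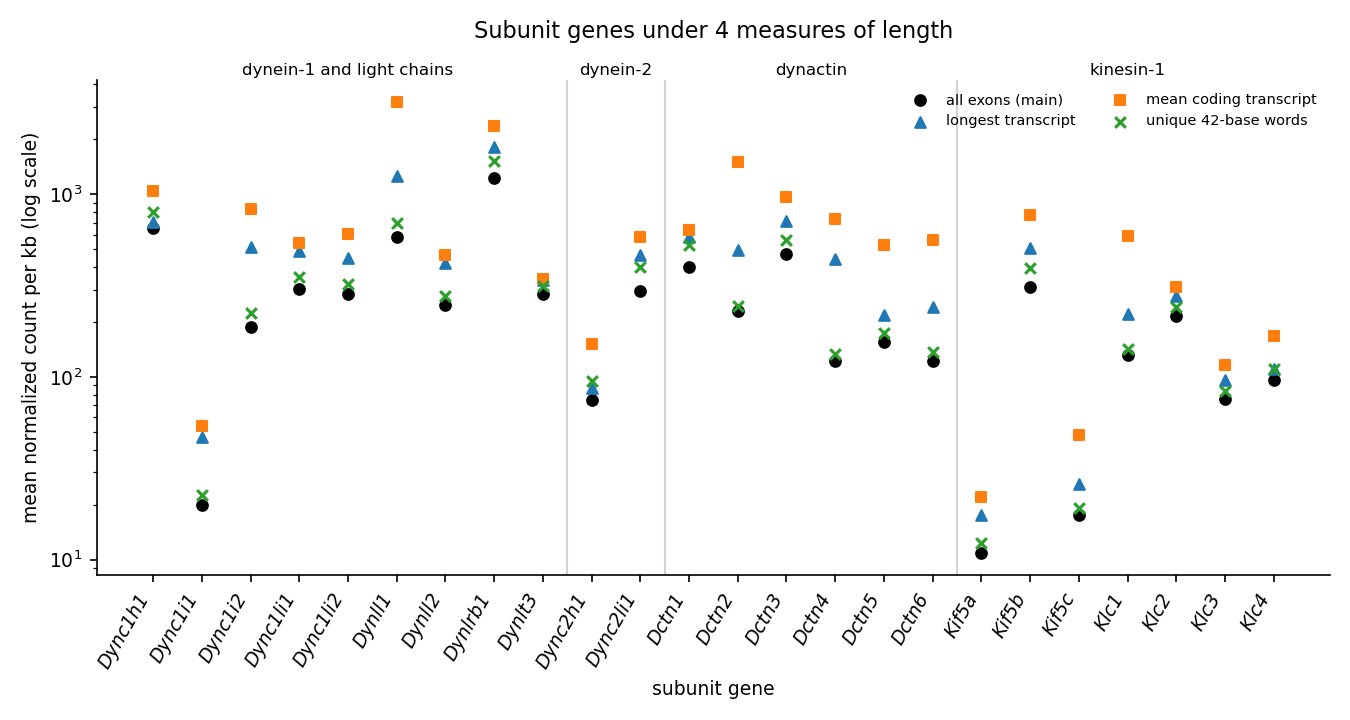
Level per kb (log scale) of 24 subunit genes of dynein-1 with its light chains, dynein-2, dynactin and kinesin-1 with its light chains, each divided by 4 measures of gene length: all exons, the longest transcript, the mean coding transcript and the number of unique 42-base words. The 4 Dynlt1 genes are left out. Dync1i1, Kif5a and Kif5c lie lowest under each length, and the 4 marks of Dctn2 spread from 230 to 1494 per kb.

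Conventional kinesin, kinesin-1, carries vesicles and organelles towards the plus end. Of its heavy chains, Kif5b, the broadly expressed form, was at 312 per kb (4020.2 normalized counts), and Kif5c and Kif5a, both known from neurons, at 17.6 and 10.9 per kb. Kif5b stood at 10.9 times the sum of Kif5a and Kif5c, with a highest ratio of 12.5 among the 4 lengths. All 4 light chains were detected, Klc2 at 216, Klc1 at 132, Klc4 at 96.7 and Klc3 at 75.4 per kb. Their sum was 1.53 times that of the heavy chains, and 1.28 times at the lowest of the 4 lengths.

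Kinesin-2 moves cargo to the tip of the cilium. Its motor subunits Kif3b, Kif3a and Kif3c were at 296, 160 and 126 per kb, and Kifap3, the subunit that binds cargo, at 103 per kb. Kif3b exceeded Kif3a 1.85-fold on union exons, but the ratio was 0.983 at its lowest among the 4 lengths. Kif17, the homodimeric kinesin-2, was at 2.36 per kb. Of the other kinesins with ciliary roles, Kif7 of Hedgehog signalling was at 63.1 per kb, Kif19a at 17.0, Kif9 at 9.68, Kif27 at 7.43 and Kif6 at 2.05 per kb. Foxj1, the regulator of motile cilia, stood at 46.1 per kb and Dnah5, an axonemal dynein heavy chain, at 0.194 per kb, and Dnai1 was not analysed here.

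In kinesin-3, whose members carry vesicles and endosomes, 6 of 7 genes had a mean of at least 10. Kif1c led them at 533 per kb (4248 normalized counts), followed by Kif1b (197 per kb), Kif14 (148 per kb), Kif13b (143 per kb), Kif13a (90.5 per kb) and Kif16b (59.5 per kb). Kif1a, the motor of synaptic vesicle precursors, was the only one of the 44 kinesin members under a mean of 10 (5.12 normalized counts). Of 4 listed neuronal genes 3 were analysed, and 2 of them had a mean of at least 10. Tubb3 stood at 135 per kb and Map2 at 74.6 per kb, whereas Syn1 was at 1.19 per kb and Snap25 was not analysed here. Kif1bp was at 126 per kb.

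The remaining kinesins covered a wide range. Kif2a (180 per kb) and Kif24 (99.97 per kb), which depolymerise microtubules, Kif12 (124 per kb), and Kif21a and Kif21b (121 and 92.4 per kb), which act on microtubule growth, lay above the median of all genes. Kifc3 was at 62.8 and Kifc2 at 19.9 per kb. The kinesin-11 genes Kif26a and Kif26b were at 20.2 and 1.20 per kb, the latter being the lowest kinesin with a mean of at least 10. The 8 listed partners of kinesins all reached a mean of 10. Trak2, an adaptor of mitochondria, was at 335 per kb and the other non-motor partners between 95.3 and 172 per kb.

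The kinesins that work in cell division stood mostly at the upper end of the family. A group of 12 such genes, called the mitotic kinesins here, was chosen with their levels known, so the comparison is a description. Their median level was 319 per kb, against 63.1 per kb in the 27 other kinesin heavy chain genes, which include Kif2a although it also acts at spindle poles, and together they held 19.99% of the summed level of all members. Kif11, the kinesin-5 that pushes spindle poles apart (ENSMUSG00000012443, GRCm39 chr19:37364799-37410307, plus strand), was at 579 per kb and 5178 normalized counts. Kif2c, which depolymerises microtubules at centromeres, followed at 540.1 per kb. The kinesin-6 genes of the midzone and cytokinesis were at 514 (Kif20a), 343 (Kif23) and 313 (Kif20b) per kb. Kif18b was at 409, the chromokinesins Kif4 and Kif22 at 324 and 240.3, Kifc1 at 239, Kif14 at 148 and Kif15 at 115 per kb. The place of Kifc1 is uncertain, since per kb of unique positions it stood at 501, beside 497 for Kif18b. Kif18a, which limits chromosome oscillation, was the lowest of the 12 at 44.0 per kb. Cenpe, a kinesin of the kinetochore outside the rule for symbols, was at 565 per kb.

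**Figure D4:**
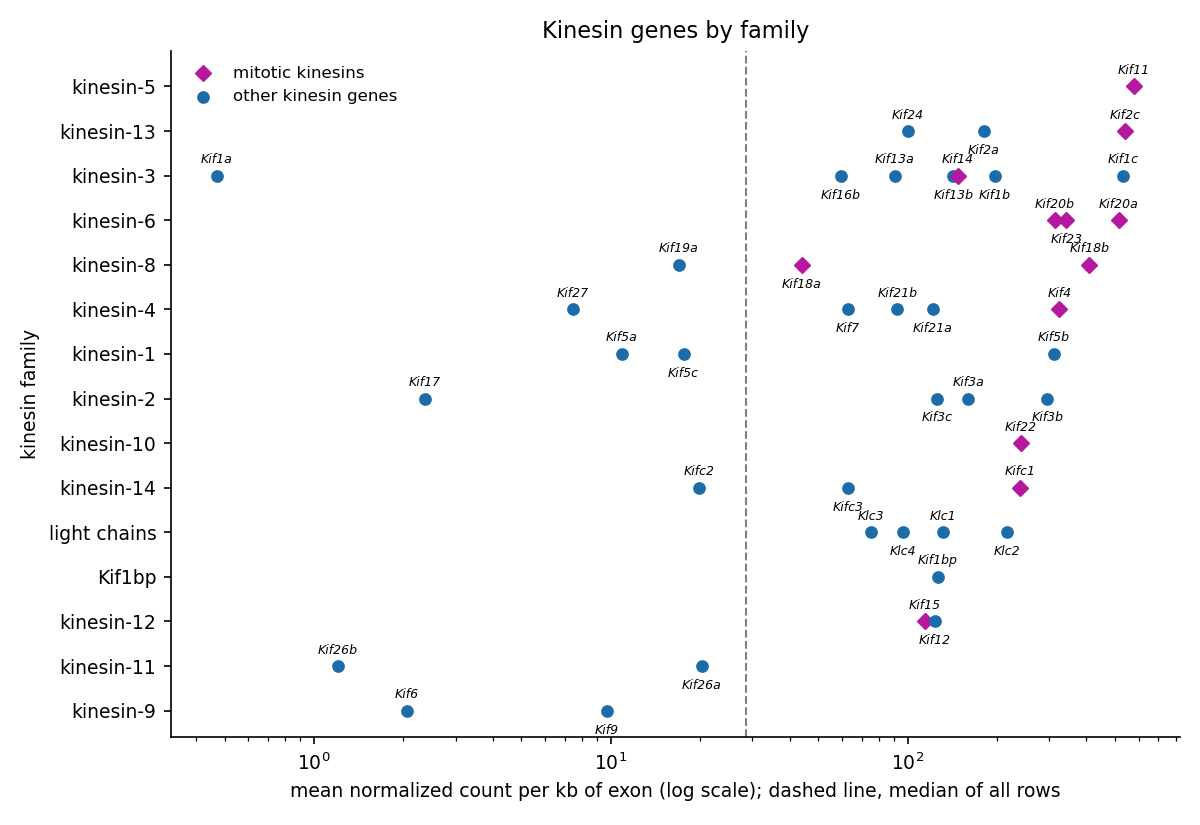
Level per kb (log scale) of the 44 kinesin genes by family, with the 12 mitotic kinesins as diamonds and the other kinesin genes as circles. The dashed line is the median of all genes (28.6 per kb). All 12 diamonds lie right of it, between 44.0 and 579 per kb, and Kif1a lies farthest left at 0.471 per kb.

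The promoters of the members were read from RefSeq (build GRCm38.p6), as windows of 300 bases from 250 before to 50 after the annotated start, and 70 of 91 members had one. They were searched on both strands for TTTGAA, a form of the cell cycle genes homology region through which many genes of mitosis are repressed outside of it. The motif was chosen after levels were seen, and 3 other motifs were searched in the same windows. TTTGAA was found in 10 of the 11 mitotic kinesins with a promoter, all except Kif18a, and in 7 of the 59 other members. In all 27025 genes with a promoter it was found in 20.2%. In 8 of the 11 it began within 20 bases of the start, as it did in 1 of the 59 other members (Kif26b) and in 2.62% of all genes. No other limit than 20 bases was examined, and in Kif11, Kif15 and Kif4 the motif began 19 bases from the start.

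The windows below run from 70 bases before to 30 after the start along each gene and are shown because they hold the motif near the start. Capitals mark TTTGAA or its reverse complement TTCAAA.
Kif11 (chr19:37376312-37376411, plus strand): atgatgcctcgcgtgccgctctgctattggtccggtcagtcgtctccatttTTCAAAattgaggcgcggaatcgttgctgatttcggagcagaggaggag
Kif15 (chr9:122951011-122951110, plus strand): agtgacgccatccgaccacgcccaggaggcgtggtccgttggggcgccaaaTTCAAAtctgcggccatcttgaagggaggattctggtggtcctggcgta
Kif18b (chr11:102925095-102925194, minus strand): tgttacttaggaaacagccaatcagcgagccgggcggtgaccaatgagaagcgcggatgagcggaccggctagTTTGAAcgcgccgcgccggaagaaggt
Kif20b (chr19:34922288-34922387, plus strand): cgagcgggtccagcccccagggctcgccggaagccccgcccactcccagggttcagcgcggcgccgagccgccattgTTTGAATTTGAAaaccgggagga
Kif22 (chr7:127042391-127042490, minus strand): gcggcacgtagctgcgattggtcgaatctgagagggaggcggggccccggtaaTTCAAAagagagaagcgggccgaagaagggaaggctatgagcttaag
Kif23 (chr9:61946770-61946869, minus strand): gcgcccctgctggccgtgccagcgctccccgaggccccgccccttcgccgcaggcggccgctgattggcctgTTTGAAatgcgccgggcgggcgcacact
Kif4 (chrX:100625995-100626094, plus strand): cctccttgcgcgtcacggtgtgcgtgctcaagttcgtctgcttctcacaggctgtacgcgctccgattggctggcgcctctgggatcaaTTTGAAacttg
Kifc1 (chr17:33890604-33890703, minus strand): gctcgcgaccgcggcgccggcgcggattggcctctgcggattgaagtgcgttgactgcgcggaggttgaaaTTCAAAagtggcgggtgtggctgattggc
The motif began 19 bases before the start in Kif11 and Kif15, 17 before it in Kif22, and 1 to 19 bases after it in the other 5. In Kif20b it was present as 2 adjoining copies. Kif15 and Kif22 also held 2 matches in the 300 bases searched, 1 of them outside the printed window. In Kif2c and Kif14 the motif lay farther upstream, 103 and 228 bases before the start.

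The other motifs gave smaller contrasts between the mitotic kinesins and the rest. CCAAT was present in 7 of the 11 mitotic kinesins, in 25 of the 59 other members and in 41.1% of all genes. GGCGGG was present in 7 of the 11, in 39 of the 59 and in 37.9%, and TTCGAA in 0 of the 11, in 2 of the 59 and in 1.80%. The 9 kinesin heavy chain genes with TTTGAA near the start, 8 of them of the mitotic group, had a median of 313 per kb, and the 22 with a promoter and no such motif near the start one of 95.2 per kb. That group and the motif were chosen with levels known, so this contrast largely repeats the one between mitotic and other kinesins. Over all classes of genes, the 208 genes of the table with TTTGAA near the start stood at a median of 66.1 per kb, and the 11595 genes with a promoter and no such motif near the start at 63.9 per kb. Such a match of letters describes the window and was not tested as a binding site.

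The label of the cells was set beside markers of the distal convoluted tubule. Of 10 listed markers, 7 were analysed and 6 of them had a mean of at least 10. These were Wnk1 at 359, Wnk4 at 94.5, Kcnj16 at 78.0, Stk39 at 57.9, Kcnj10 at 7.07 and Trpm6 at 3.72 per kb. Klhl3, at 0.772 per kb, did not reach that mean. Since 85.3% of protein-coding genes reached it too, the count of markers alone cannot check the label. Slc12a3, the sodium chloride cotransporter that defines the segment, was not analysed here, nor were Pvalb and Calb1. Of 5 listed epithelial markers 3 were analysed, and Cdh1 and Krt18 were not analysed here. Epcam (44.6 per kb) had a mean of at least 10, and Krt8 and Cldn4 (0.980 and 4.00 normalized counts) did not. Vim, the gene of vimentin, stood at 3672 per kb (17450 normalized counts), above Myh9. Whether the cultures keep the identity of the segment was not tested. The leukocyte markers Cd68 and Ptprc stood at 30.6 and 0.286 per kb. A further 19 protein-coding genes with motor symbols in the annotation, and the motor genes Tctex1d4 (Dynlt4) and Gm4869 (Kif19b), listed at 3.34 and 1.37 normalized counts under older symbols, are not among the 91 members, and the 19 were not analysed here.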

How the data were processed

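RNA from 3 wild type and 3 Pkd1-/- mDCT15 cultures was sequenced as paired reads of 42 bases. According to the submitters' processing notes and the study's methods, the authors trimmed reads with Trim Galore 0.4.5, mapped them with STAR 2.7.5a to GRCm39, counted them per gene with HTSeq 0.11.0 and normalized the counts with DESeq2 1.22.0 in R 3.5.3. The deposited table gives for each gene the mean of the normalized counts over all 6 samples, a signal in which the authors divided counts by library size factors and pooled both genotypes. Since each value is pooled, the depth of a library and the precision it gives are unknown, and 0 columns of single samples were left unmatched. Its other columns hold the authors' own comparison of the genotypes (fold change, standard error, statistic, p-value and adjusted p-value). These were not used, and the planned test on counts could not be made.

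Means were divided by union exon lengths from GENCODE vM39 on GRCm39, to which 97.6% of 20624 genes matched by gene ID. The annotation release differs from the authors' Ensembl release. Alternatives were the longest transcript, the mean coding transcript and the number of exon positions whose 42-base word is unique in the genome, a count tested on simulated data, as well as minimum means of 1, 5 and 100. Members under 80% unique positions were called uncertain. Exon overlaps were found with bedtools 2.31.1, and tables and plots were made with Python 3.11.15, numpy 2.4.6, pandas 2.3.3 and matplotlib 3.10.9. Percentiles are ranks among all genes with a length.

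Named genes were all subunits of dynein, dynactin and kinesin-1, the nonmuscle myosin-2 heavy chains, every other kinesin or myosin with a mean of at least 10 and the 10 highest and 10 lowest per kb, with other members by count and range. Members named outside this rule, the mitotic group, the motifs and the antisense check were chosen after values were seen. The members and lists were chosen with earlier results of these data known. A gene that the rule names is not reported here.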

Additional observations from a re-analysis of the deposited data

How the results depend on the processing

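None of the 32 alternative values of the counts and shares moved by more than 1.5 times. The counts of all members and of kinesin, dynein and dynactin genes lay too near the class size to rise that far. Summing repeated symbols, 1 of these alternatives, could not change the count of 81, since no symbol of the 91 members was repeated. The number of members detected was 90, 85 and 69 at minimum means of 1, 5 and 100. The number of myosin genes, 17 at a minimum mean of 10, was 25, 20 and 16 at these means and so depended on the cutoff. Of the 10 highest members per kb, 8 were kept with the longest transcript (Dctn3 and Kif23 entered), 8 with the mean coding transcript (Dctn2 and Kif22 entered) and 10 with unique words. Among the 10 lowest, Dynlt1a and Dynlt1c stood higher, above Kif5c and Kif19a, with unique words. With the mean coding transcript, Kif26a (20.2 per kb) and Kifc2 (28.4 per kb) replaced Myo5b (29.9 per kb) and Dynlt1a (36.2 per kb) there. Of 45 alternative ratios between subunits, 12 moved by more than 1.5 times, and the orders of the dynactin genes, Kif3b and Kif3a, Dync1li1 and Dync1li2, and the light intermediate chains and Dync1h1 depended on the length used. The level per kb rests on all annotated exons, which overstates the length of genes with many minor isoforms. No paired analysis was possible because the values are means over all 6 samples. Leaving out a replicate could not be run for the same reason. The pooled means set no limit of detection for a single library.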
